A study of Mus musculus with 8 samples.

Results

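Transcripts of 8 interferon-induced GTPases were examined in 8 single-cell RNA-seq libraries of mouse lumbar spinal cord microglia, the resident macrophages of the cord. The GTPases were the guanylate-binding proteins Gbp2, Gbp3, Gbp5 and Gbp7 and the immunity-related GTPases Irgm1, Irgm2, Igtp and Iigp1. They were chosen by gene symbol, and all 8 were found once each among the 27998 genes of the count tables. The animals were young adult C57BL/6 mice of both sexes. All were heterozygous for Cx3cr1-yfp-creER, an allele that puts YFP and a tamoxifen-inducible Cre under the Cx3cr1 promoter, which is active in microglia and also in some monocytes and border macrophages. The 4 control libraries carried no other allele. The 4 libraries called A20 cKO were from Cx3cr1-yfp-creER/+; Tnfaip3 fl/fl animals for which the study's methods give tamoxifen before the experiment, and Tnfaip3 encodes A20, a ubiquitin-editing brake on NF-kB signalling. The methods date all experiments from a first tamoxifen dose and do not separate the genotypes. Per genotype, 1 library came from uninjured (naive) mice and the others from mice 1, 2 and 3 days after sciatic nerve injury by transection and ligation. YFP-positive cells were sorted from pooled cords of several animals, so each group had 1 library and no replicate.

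Interferons bind receptors that signal through JAK kinases to transcription factors of the STAT and IRF families. These then switch on many genes, and the guanylate-binding proteins (GBPs) and immunity-related GTPases (IRGs) are among the most strongly induced of them in mouse macrophages. GBPs are large dynamin-like GTPases that assemble on the membranes of bacteria and of vacuoles that hold microbes, and they promote inflammasome activation. Among IRGs, the regulators Irgm1, Irgm2 and Igtp (also called Irgm3) sit on the cell's own membranes and hold effector IRGs such as Iigp1 (also called Irga6) inactive there, while the effectors load onto the vacuoles of microbes and break them. Type I interferons (IFN-alpha and IFN-beta) and IFN-gamma can each induce these genes, and microglia respond to both.

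The promoters of the GTPases are shown because the genes share a route of induction. RefSeq promoter sequences on GRCm38.p6, the build of the deposited counts, had an entry for 7 of the 8 genes. In the 250 bases before the transcript start, 2 motifs were searched on both strands. GAAANNGAAA is the core of the interferon-stimulated response element (ISRE), which complexes that hold IRFs bind. TTCNNNGAA is the gamma-activated sequence (GAS), which STAT dimers bind. An ISRE core was present in all 7 of those genes, against 974 of 32817 promoters of the same length overall (2.97%). GAS was present in 4, Gbp5, Gbp7, Irgm2 and Igtp, against 2302 promoters overall (7.01%). Each stretch around the ISRE core is printed on the strand of its gene, with matches to either motif in capitals:
Gbp2 (chr3:142620584-142620633, plus): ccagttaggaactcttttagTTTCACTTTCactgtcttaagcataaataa
Gbp3 (chr3:142559979-142560034, plus): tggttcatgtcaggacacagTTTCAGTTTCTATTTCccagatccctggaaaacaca
Gbp5 (chr3:142496749-142496798, plus): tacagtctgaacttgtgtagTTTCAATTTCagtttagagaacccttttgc
Gbp7 (chr3:142530263-142530312, plus): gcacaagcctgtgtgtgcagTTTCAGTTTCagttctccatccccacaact
Irgm1 (chr11:48871421-48871470, minus): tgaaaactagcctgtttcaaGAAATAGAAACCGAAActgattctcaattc
Irgm2 (chr11:58214893-58214942, plus): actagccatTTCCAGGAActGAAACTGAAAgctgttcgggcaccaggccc
Igtp (chr11:58199502-58199551, plus): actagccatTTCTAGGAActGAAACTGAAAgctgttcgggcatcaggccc

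The 4 Gbp promoters carried the ISRE core in reverse orientation and the 3 Irg promoters in forward orientation. In Gbp3 and Irgm1 it occurred as 2 overlapping copies, which appear as 1 longer run of capitals. A second RefSeq start of Gbp3 held neither motif. The bases shortly after that start, and after the Irgm2 start, were not found in a GENCODE M21 transcript of their gene. The printed Irgm2 stretch lies inside the GENCODE M21 gene model, which begins at 58199618. The Gbp5 and Irgm1 stretches also lie inside the models of their genes, and those of Gbp2 and Gbp3 reach past the model starts. Only the Gbp7 and Igtp stretches lie wholly before the model starts. The GAS matches of Gbp5 and Gbp7 lie outside the printed stretches. In Irgm2 and Igtp a GAS stood directly before the ISRE core, and over the 215 bases that could be aligned these 2 promoters were identical at 90.2% of positions. These matches describe letters in the sequence and were not tested for binding or activity.

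On GRCm38 (GENCODE M21) the 4 Gbp genes stand on the plus strand of chromosome 3 in the order Gbp5 (142493978 to 142522344), Gbp7 (142530342 to 142550149), Gbp3 (142560026 to 142573209) and Gbp2 (142620602 to 142638008). Irgm1 is on the minus strand of chromosome 11 (48861968 to 48871683), Igtp (58199556 to 58207591) and Irgm2 (58199618 to 58222782) overlap on its plus strand, and Iigp1 is on the plus strand of chromosome 18 (60376027 to 60392634). All are protein coding. UMIs were tags of transcript 3′ ends. In the last 500 bases of their coding transcripts, Igtp, Irgm2, Gbp2, Gbp7 and Iigp1 shared no window of 50 bases with any other gene's transcripts. Gbp3 shared 3.25% of its windows with Gbp7, and Irgm1 (3.96%) and Gbp5 (1.62%) shared theirs with genes outside the family. Because Igtp and Irgm2 overlap on one strand, reads in shared parts of their models may have been left out or split. Levels are compared between libraries for 1 gene at a time and not between genes.

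The libraries held 14883 cell barcodes, of which 14626 were kept, with 558 to 3585 cells and 1620481 to 15817426 UMIs per library and a median of 2780 to 4274 UMIs per cell. Control day 3 and the 4 A20 cKO libraries stood apart from control naive, day 1 and day 2. Their 10 pairs shared 256 barcodes, a median of 13.7 ppm of the possible barcode pairs, against 98 shared (median 1.94 ppm) in the 15 pairs between the sets and 27 (median 1.59 ppm) in the 3 pairs of the other controls. The labels name no batch, and the cause of the sharing was not tested. These 5 libraries are called the linked libraries. Any difference that crosses from the other 3 controls to a linked library, which includes control day 3 against naive and A20 cKO against control at naive, day 1 and day 2, cannot be told apart from whatever links them.

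All 8 microglia markers were found in each library, at a summed 11892 to 24672 UMIs per 1000000 UMIs of the library (CPM). Markers of other cells also differed between the sets. The 5 monocyte markers summed to 2.21 to 3.70 CPM in control naive, day 1 and day 2 and to 27.0 to 86.0 CPM in the linked libraries, of which Plac8 alone made up 22.1 to 83.4 CPM. Of the other monocyte genes, Ccr2 did not follow it, at 0.63 to 1.85 CPM and at 0.33 to 2.36 CPM in the same sets. Ly6c2 was at or below 0.66 CPM in every library and at 0 in control naive, control day 1 and A20 cKO day 2. Vcan (0 to 0.36 and 0.66 to 2.36 CPM) and Chil3 (0 and 0.55 to 1.46 CPM) were higher in the linked libraries, at low counts. Neutrophil markers summed to at most 0.14 CPM and to 30.3 to 54.8 CPM, with S100a8 and S100a9 at 0 in those 3 controls, and oligodendrocyte markers to 60.1 to 83.3 and 149 to 202 CPM. Astrocyte markers summed to 2.21 to 3.29 and 8.23 to 26.7 CPM. Border macrophage markers stayed at or below 3.63 CPM with Cd163 at 0 in every library. T and NK cell markers summed to 13.2 CPM in control day 2 and to at most 1.85 CPM in the other libraries, with Cd3e at 0 in every library. In control day 2 Gzma made up 9.29 CPM and Nkg7 3.03 CPM, and Gzma was at 0 in the other libraries. B cell markers were at 21.2 to 51.1 CPM with Ms4a1 at 0. Endothelial markers summed to 13.97 to 51.2 CPM, and the 51.2 CPM of control naive was all Pecam1. The endothelial genes Cldn5, Flt1, Ly6c1 and Pltp were each at 0 to 0.38 CPM in those 3 controls and at 0.56 to 6.59 CPM in the linked libraries. Tnfaip3 itself was at 6.83 to 25.3 CPM in the control libraries and at 42.3 to 67.7 CPM in those labelled A20 cKO. The sources used here do not give the position of its floxed exons, and a 3′ tag outside the deleted part would not show the deletion, so this is no check of the genotype.

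The summed level of the 8 GTPases separated the libraries into a low and a high set. The control libraries had 211 CPM when naive, then 169, 168 and 573 CPM on days 1, 2 and 3. The A20 cKO libraries had 372 CPM when naive, then 418, 468 and 538 CPM. Control day 3 was thus the highest of all libraries, A20 cKO day 3 came next, and the 3 other controls were lowest. Neighbours in an order of levels are said to differ beyond counting error where the exact conditional 95% interval of their CPM ratio excludes 1, which covers neither animals nor sorting. By this rule only control day 1 and day 2 did not differ, and control day 3 and A20 cKO day 3 differed by a bare margin (log2 ratio 0.09, 0.00056 to 0.18) that centring on the median gene, described with the comparisons, removed. These 5 high libraries are the linked ones. In whole libraries fewer expressing cells cannot be told apart from less RNA per cell.

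**Figure D1:**
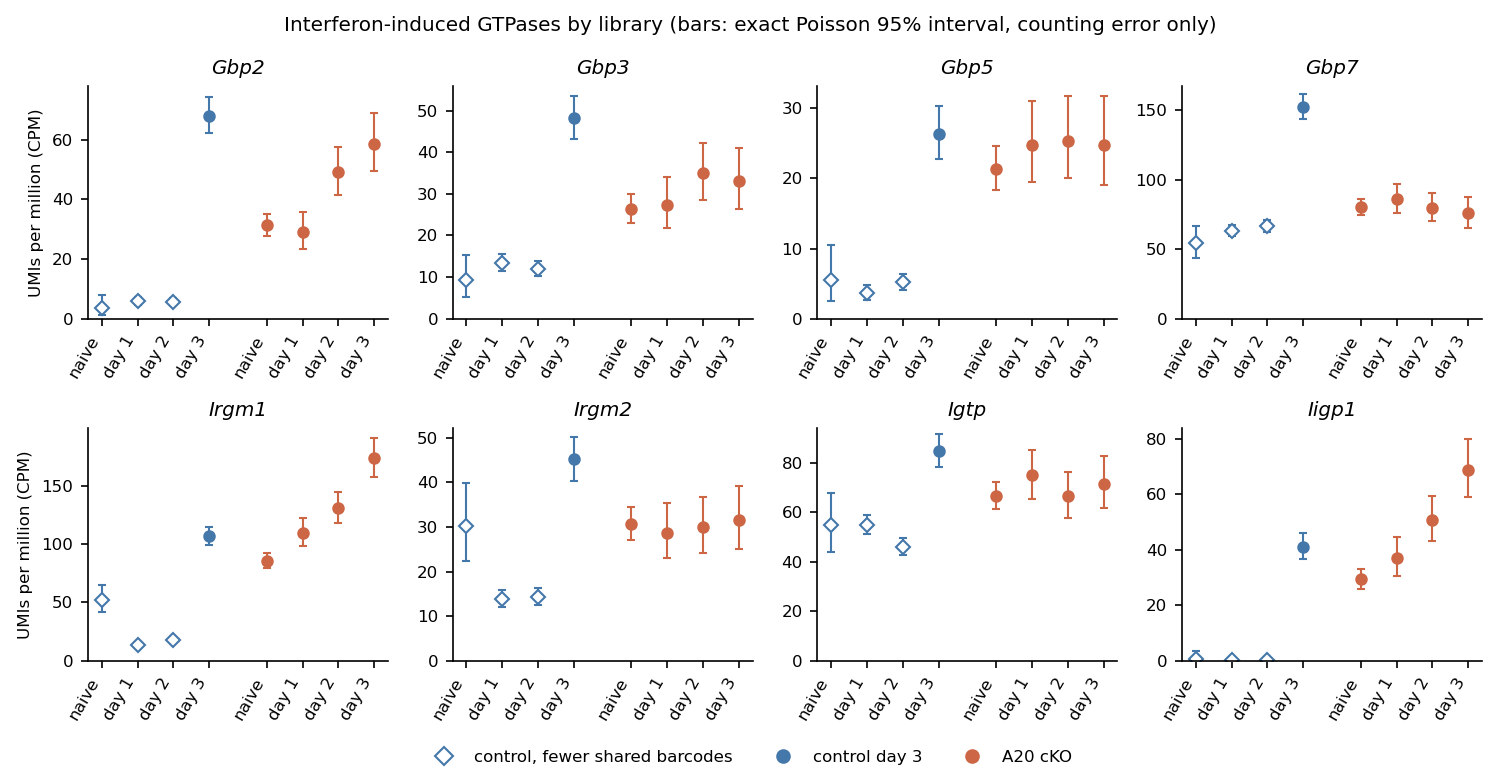
CPM of each GTPase (y axis, a separate scale per gene, from 0) in the 4 control (blue) and 4 A20 cKO (orange) libraries, with exact Poisson 95% intervals as bars. Filled circles are the linked libraries and open diamonds the other 3 controls, where Gbp2 stays at or below 5.83 CPM and Iigp1 at or below 0.62 CPM.

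Gbp2, a prenylated GBP that coats vacuoles and bacteria, was at 3.70, 5.83 and 5.56 CPM in the first 3 controls, and at 68.1 CPM in control day 3. Its A20 cKO levels were 31.3 CPM in naive animals and 29.1, 49.1 and 58.6 CPM on days 1, 2 and 3. The linked libraries did not overlap with the rest. Among them control day 3 and A20 cKO day 3 were the highest and did not differ beyond counting error, nor did A20 cKO naive and day 1, which were the lowest.

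Gbp5, a GBP known to promote NLRP3 inflammasome assembly, showed a step with no further gradient. It was at 5.55, 3.63 and 5.18 CPM in the first 3 controls and at 26.3 CPM in control day 3. A20 cKO had 21.3 CPM in naive animals, 24.8 CPM on day 1, 25.4 CPM on day 2 and 24.8 CPM on day 3. No neighbours among the 5 linked libraries differed beyond counting error.

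Gbp3, a further member of the chromosome 3 cluster, was at 9.26, 13.4 and 12.01 CPM in the first 3 controls and at 48.2 CPM in control day 3. A20 cKO had 26.3 CPM in naive animals and 27.4, 34.9 and 33.1 CPM on days 1 to 3. Control day 3 was above every A20 cKO library.

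Gbp7, a GBP linked to assembly of the phagocyte NADPH oxidase, set control day 3 apart from all others. It was at 54.3, 63.4 and 66.6 CPM in control naive, day 1 and day 2, at 152 CPM on day 3, and at 80.2, 85.9, 79.8 and 75.9 CPM in A20 cKO naive, day 1, day 2 and day 3. The 4 A20 cKO values did not differ from their neighbours in the order beyond counting error, and A20 cKO day 3 did not differ so from control day 2.

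Irgm1, the IRG regulator whose loss leaves mice unable to control several intracellular bacteria, was lowest in control day 1 and highest in A20 cKO day 3. Its control levels were 52.5 CPM when naive, then 13.4, 18.02 and 107 CPM on days 1, 2 and 3. Its A20 cKO levels were 86.0 CPM when naive, then 110.0, 131 and 174 CPM. Of the neighbours in that order, A20 cKO day 1 and control day 3 did not differ beyond counting error.

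Irgm2, the second regulator, stood at 30.2 CPM in control naive, at 13.9 and 14.3 CPM on days 1 and 2, and at 45.2 CPM on day 3. All A20 cKO libraries lay between 28.7 and 31.5 CPM and close to control naive. Igtp, the third regulator, ranged from 46.1 to 84.7 CPM, with 54.9, 54.9, 46.1 and 84.7 CPM in the controls in order of time, and 66.5, 75.0, 66.6 and 71.6 CPM in A20 cKO. Among its 8 values, only control day 1 and day 2 were neighbours that differed beyond counting error.

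Iigp1, the effector IRG, was close to absent from the low set. It had 1, 2 and 3 UMIs in control naive, day 1 and day 2 (0.62, 0.14 and 0.19 CPM), at or under a floor of 3 UMIs. Control day 3 had 299 UMIs, or 41.0 CPM, and A20 cKO had 29.4 CPM in naive animals and 37.0, 50.8 and 68.9 CPM on days 1, 2 and 3. Iigp1 and Irgm1 were thus highest in A20 cKO day 3, whereas the other 6 members were highest in control day 3.

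For comparisons between libraries, log2 ratios of UMI sums were centred on the median gene, and a member was counted as higher or lower when it had at least 100 UMIs in the pair of libraries and a difference of at least 2-fold. Centring removed shifts of the median gene of at most 0.10 on the log2 scale, except for -0.13 and -0.12 in control day 1 and day 2 against naive, 0.20 in A20 cKO against control on day 1 and -0.12 on day 3. With 1 library a group no test was run, and intervals are exact conditional 95% intervals of the counts.

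Among controls, where the question is the response to nerve injury, 2 of 5 members tested on day 1 were at least 2-fold lower than in naive animals, where 5.22% of all genes tested were. These were Irgm1, with a log2 ratio of -1.85 (-2.22 to -1.46), and Irgm2, just past the limit at -1.01 (-1.45 to -0.51). On day 2, 1 of 5 was lower, Irgm1 at -1.43 (-1.78 to -1.06), against 4.27% of genes. Gbp7 was slightly higher on both days, at 0.35 (0.04 to 0.69) and 0.40 (0.10 to 0.74). As a result the 4 IRGs summed were at -0.62 (-0.83 to -0.41) and -0.70 (-0.90 to -0.49) and the 4 Gbps summed at 0.37 (0.10 to 0.66) and 0.41 (0.14 to 0.70), opposite directions within the same libraries, and these 3 libraries are on one side of the barcode split. The naive library was the smallest of the 3 controls, with 342 GTPase UMIs.

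On day 3, 5 of 8 members exceeded control naive by at least 2-fold, against 7.48% of all genes tested. The fold was 16.2 for Gbp2 (7.99 to 48.0), 4.81 for Gbp3 (2.97 to 8.96), 4.29 for Gbp5 (2.33 to 10.0) and 2.66 for Gbp7 (2.15 to 3.36). For Iigp1 the single UMI of the naive library gave a ratio of 42.3 with a counting interval of 11.3 to 2511. The regulators differed less, by 0.95 for Irgm1 (0.63 to 1.30), 0.55 for Igtp (0.23 to 0.89) and 0.50 for Irgm2 (0.07 to 0.97) on the log2 scale. The median over the 8 members was 1.76, beside 0 over all genes by construction. This comparison crosses the barcode split.

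**Figure D2:**
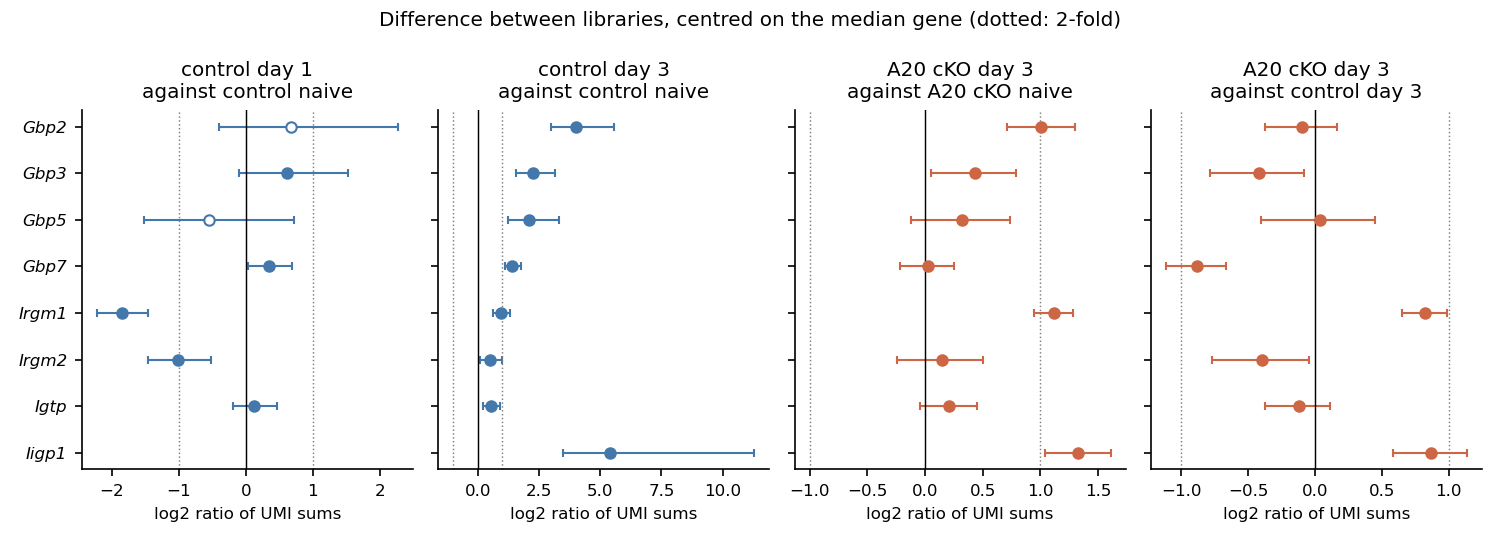
Log2 ratio of UMI sums of each GTPase (x axis, a separate scale per panel, centred on the median gene) in 4 comparisons, with exact conditional 95% intervals as bars. Open symbols mark members with under 100 UMIs in the pair of libraries, dotted lines mark 2-fold, and Iigp1 is left out of the first panel, where it had 2 and 1 UMIs. Irgm1 lies at -1.85 in the first panel and at 1.12 in the third.

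In A20 cKO the response to injury can be read within linked libraries. None of the 8 members was 2-fold higher or lower than in naive A20 cKO on day 1 (1.38% and 1.57% of all genes) or on day 2 (3.31% and 2.28%). On day 3, 3 of 8 were higher, against 2.48% of genes, namely Iigp1 at 1.33 (1.04 to 1.61), Irgm1 at 1.12 (0.94 to 1.29) and Gbp2 at 1.01 (0.71 to 1.30). Gbp2 was only just past 2-fold, and without centring it was at 0.91 and 2 of 8 were higher. The share of all genes without centring is not given here. The other 5 lay between 0.02 (Gbp7, -0.22 to 0.25) and 0.43 (Gbp3, 0.05 to 0.79). The summed log2 ratio was 0.13 (0.04 to 0.22), 0.40 (0.31 to 0.49) and 0.63 (0.54 to 0.72) on days 1, 2 and 3.

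Between genotypes, naive A20 cKO had 4 of 8 members at least 2-fold above control naive, against 6.47% of genes. Iigp1 had 262 UMIs against 1, a ratio of 30.8 (8.21 to 1830). The log2 ratios of Gbp2, Gbp5 and Gbp3 were 2.92 (1.89 to 4.49), 1.82 (0.94 to 3.05) and 1.42 (0.71 to 2.32), while Irgm2 was at -0.04 (-0.47 to 0.44). On day 1, 4 of 8 were higher (10.3% of genes), Gbp2, Gbp5, Irgm1 and Iigp1. Without centring 6 of 8 were, but the share of all genes without centring is not given here. On day 2, 6 of 8 were higher (9.81% of genes), all except Gbp7 and Igtp. On these days Irgm1 had the log2 ratios 2.84 (2.58 to 3.11) and 2.81 (2.58 to 3.03). All 3 of these comparisons cross the barcode split.

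On day 3 both genotypes were among the linked libraries, and none of the 8 members was 2-fold higher (2.39% of genes) or lower (1.73%) in A20 cKO. The summed log2 ratio was 0.03 (-0.06 to 0.12), and without centring its sign changed, to -0.089. The members went different ways beneath that sum. Iigp1 (0.87, 0.59 to 1.14) and Irgm1 (0.82, 0.65 to 0.99) were higher in A20 cKO, and Gbp7 (-0.88, -1.12 to -0.67), Gbp3 (-0.42, -0.79 to -0.08) and Irgm2 (-0.40, -0.77 to -0.05) were lower. The 4 Gbps summed were at -0.50 (-0.64 to -0.36) and the 4 IRGs summed at 0.43 (0.32 to 0.55). Naive A20 cKO against control day 3, also between linked libraries, gave 1 member at least 2-fold lower, against 1.45% of genes, which was Gbp2 at -1.11 (-1.32 to -0.89). All 8 members were below 0 there, with a summed log2 ratio of -0.61 (-0.68 to -0.54), although the 2 comparisons share the control day 3 library.

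To compare cells at equal depth, each cell was thinned to 2000 UMIs, which kept 13691 cells and left out the shallower ones. The libraries had a mean of 0.33 to 1.08 GTPase UMIs per thinned cell, so the share of cells with a UMI rises with the level too. These shares therefore cannot separate more expressing cells from more RNA per cell. Of thinned cells, 31.1%, 27.8%, 27.4% and 56.0% of the controls, from naive to day 3, had a UMI of any member. For A20 cKO the shares were 43.5%, 48.2%, 52.7% and 58.2%. Exact binomial 95% intervals were 27.0% to 35.3% in control naive, 53.7% to 58.3% in control day 3 and 53.9% to 62.4% in A20 cKO day 3. The unthinned shares were higher, from 39.8% in control naive to 77.4% in A20 cKO day 3. Single members were found in few cells. Irgm1 was detected in 2.11% of control day 1 cells, 17.2% of control day 3 cells and 27.1% of A20 cKO day 3 cells. Iigp1 was detected in 0 of 3225 control day 1 cells, for which the exact upper limit is 0.114% of cells with a UMI at this depth and not of cells that express the gene, since the unthinned library held 2 Iigp1 UMIs. It was detected in 4.63% and 9.48% of the day 3 cells of control and A20 cKO.

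Free RNA in droplets can also give such UMIs, and its part in the shares was not tested.

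Cells with several members were counted next. The share of thinned cells with at least 3 different members was 0.60%, 0.31% and 0.43% in control naive, day 1 and day 2, and 8.20% in control day 3. A20 cKO had 3.83% in naive animals and 4.34%, 6.07% and 4.28% on days 1 to 3. The most members found in 1 thinned cell were 3, 3, 4 and 6 in the controls and 8, 6, 7 and 7 in A20 cKO.

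**Figure D3:**
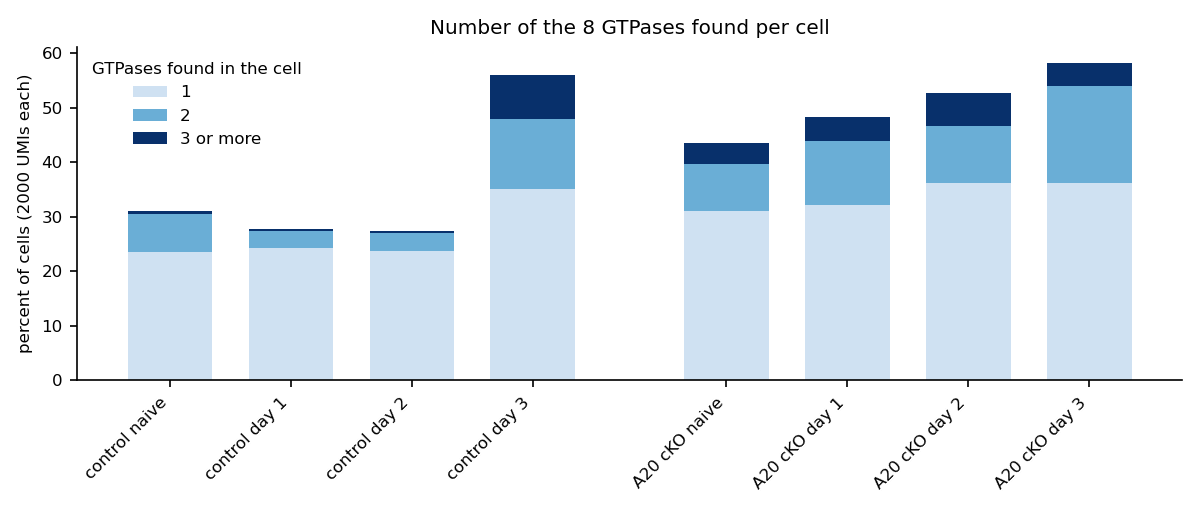
Share of cells (y axis, percent, each cell thinned to 2000 UMIs) in which 1, 2, or 3 or more of the 8 GTPases were found, as stacked bars for each library. The darkest segment is 8.20% of cells in control day 3 and at most 0.60% in the other 3 controls.

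The GTPases were then set against type I interferon-stimulated genes (ISGs) in the same cells. A cell was put in the ISG class when at least 3 of 12 such genes (Ifit1, Ifit2, Ifit3, Isg15, Rsad2, Oasl1, Oasl2, Usp18, Mx1, Cmpk2, Rtp4 and Irf7), none of them a member, had a UMI after thinning. The class held 2.19%, 0.96% and 1.15% of cells in control naive, day 1 and day 2 and 31.0% on day 3. Its share of A20 cKO cells was 26.6%, 32.4%, 57.2% and 61.3% in order of time. It is a range and not a cell type: in control day 3, 163 of its 583 cells had exactly 3 of the genes and 296 further cells had 2.

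Cells of the class had more GTPase UMIs in every library. In control day 3 the 8 members summed to 968 CPM (913 to 1026) in the class and to 345 CPM (323 to 368) outside it, a fold of 2.81 (2.57 to 3.07). The folds in A20 cKO were 2.54 (2.32 to 2.79), 2.92 (2.51 to 3.42), 2.01 (1.67 to 2.45) and 2.26 (1.85 to 2.80) in order of time, and in the other 3 controls they were 2.50 to 2.88 on 11 to 40 cells. Inside the class, control day 3 was above every A20 cKO library, which had 564 to 738 CPM. Outside the class, the linked libraries had 248 to 345 CPM and the other controls 163 to 205 CPM. The class thus held 55.8% of GTPase UMIs in control day 3 and 47.9%, 58.4%, 72.9% and 78.2% in A20 cKO. Control day 3 and A20 cKO day 3, whose sums differed little, combined a smaller class at a higher level with a larger class at a lower level (653 CPM, 593 to 718).

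**Figure D4:**
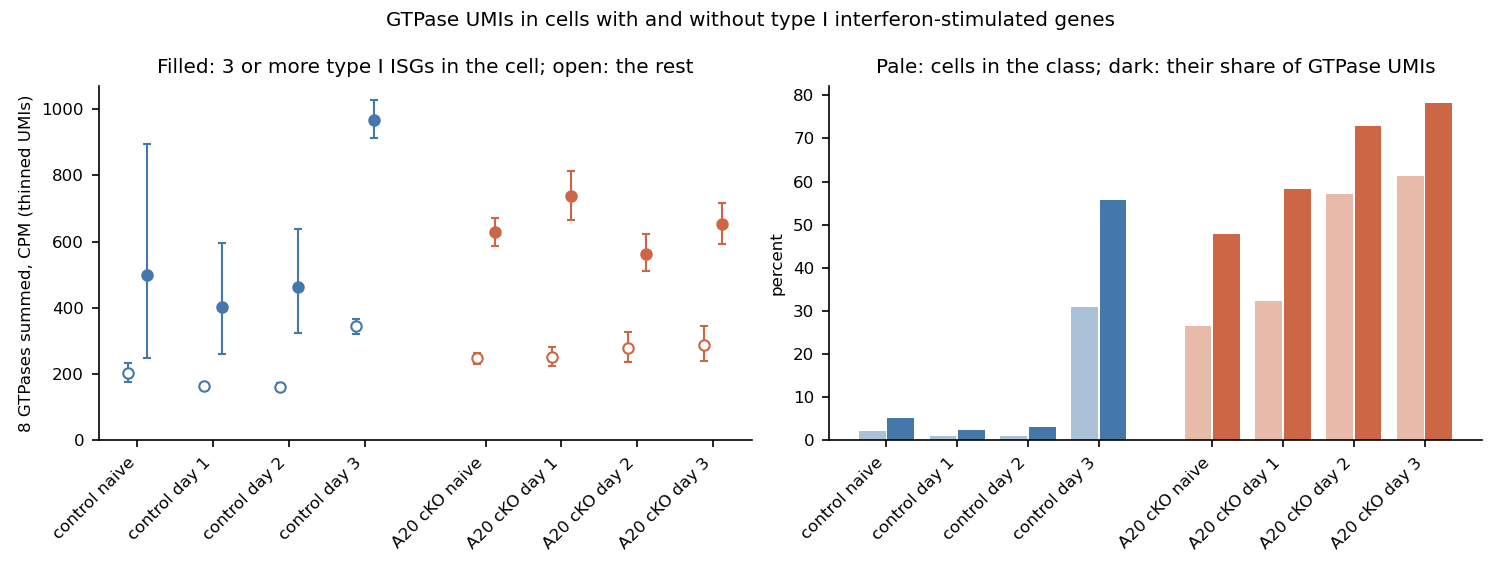
Left, summed CPM of the 8 GTPases in cells with at least 3 of 12 type I ISGs (filled) and in the remaining cells (open), with exact Poisson 95% intervals. Right, percent of cells in the class (pale bars) and percent of all GTPase UMIs that they held (dark bars), which reach 31.0% and 55.8% in control day 3 and 61.3% and 78.2% in A20 cKO day 3.

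The members differed in how closely they followed the class. Iigp1 had the highest fold of the 8 in each linked library, although its interval overlapped with others in A20 cKO day 2 and day 3, with 9.31 (5.96 to 15.6) in control day 3 and 11.98 (7.61 to 20.3), 18.01 (7.83 to 63.2), 3.38 (1.85 to 7.16) and 4.41 (2.21 to 11.3) in A20 cKO naive, day 1, day 2 and day 3. Outside the class Iigp1 was at 4.46 to 22.4 CPM in the linked libraries. Irgm1 had folds of 3.42 (2.78 to 4.23) in control day 3 and 1.75 to 3.96 in A20 cKO, each interval above 1. The folds of Irgm2 were 1.10 to 2.35 over the linked libraries and those of Gbp7 1.30 to 2.96, and the interval of Irgm2 included 1 in A20 cKO day 2 and day 3. In A20 cKO naive the intervals of Iigp1 did not overlap with those of any other member. Gbp7 in control day 3 was at 232 CPM in the class and 115 CPM outside it, both above the corresponding 95.5 and 31.3 CPM of A20 cKO day 3.

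**Figure D5:**
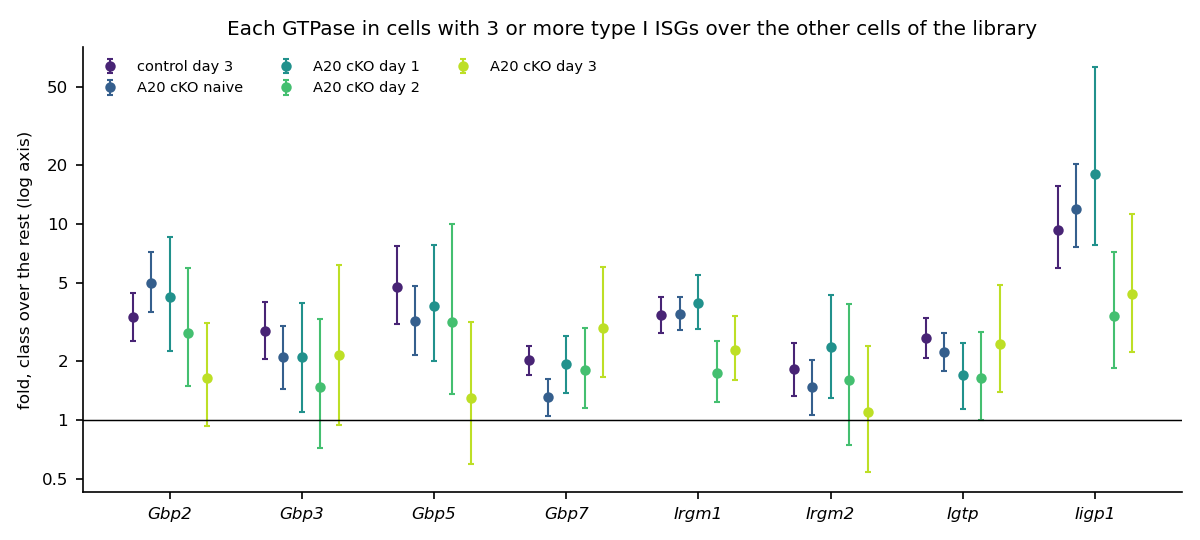
Fold of each GTPase in cells with at least 3 of 12 type I ISGs over the other cells of the same library (y axis, log scale) in the 5 linked libraries, with exact conditional 95% intervals as bars. Iigp1 lies between 3.38 and 18.01 and Irgm2 between 1.10 and 2.35, with the line at 1 marking no difference.

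Genes outside the family were ranked by likeness to the summed GTPases over cells, as the median over the 8 libraries of the correlation within a library. Among 5666 genes compared the 10 most alike were Ifit3, Ifit2, Ifit3b, Isg15, Ifit1, Cxcl10, Rsad2, Usp18, Ifi204 and Oasl2, all known interferon-stimulated genes. Their median correlation was 0.32 (Ifit3) to 0.23 (Oasl2), beside a 99th percentile of 0.10 over all genes compared. Ifit3, an antiviral protein, had r of 0.44 in control day 3 and 0.31 to 0.36 in A20 cKO. In control naive, day 1 and day 2 its r was 0.12, 0.08 and 0.07. All 10 genes had lower r in those controls, at -0.009 to 0.15, than in the linked libraries, at 0.21 to 0.44. The linked libraries thus set the medians, and the ranking describes them rather than those controls. Ifit1, Ifit2, Rsad2, Usp18, Oasl2 and Cxcl10 met the detection limit for this comparison only in linked libraries. The counts are sparse and the cells of a library share depth, so these values rank genes and carry no test.

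GTPase levels were also compared by cell cycle genes. In cells with at least 3 of 18 core G2/M genes the summed GTPase level was 1.05-fold (0.88 to 1.24) that of the other cells in control day 2, on 462 cells, and 1.15-fold (0.98 to 1.33) in control day 3, on 161 cells. In A20 cKO the folds were 1.25 (0.94 to 1.62), 1.09 (0.65 to 1.66), 0.90 (0.67 to 1.17) and 1.02 (0.69 to 1.43) in order of time. All of these intervals include 1. In control naive and day 1 the class had 1 and 4 cells and gave no usable value.

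Interferon ligands were scarce in these cells. Of 10 ligand genes none reached 100 UMIs in any comparison. Ifng, which encodes IFN-gamma, was found only in control day 2, with 2 UMIs (0.13 CPM). That library also held all Gzma UMIs, and whether the same cells held both was not tested. Ifnb1, which encodes IFN-beta, was at 0 to 0.41 CPM in the controls and at 0.90, 1.32, 4.94 and 4.72 CPM in A20 cKO naive, day 1, day 2 and day 3. Only sorted YFP-positive cells were sequenced, so ligands from other cells of the cord were not measured.

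The 4 receptor genes, Ifngr1, Ifngr2, Ifnar1 and Ifnar2, were expressed throughout. Over the 8 libraries Ifngr1 was at 689.5 to 1173 CPM, Ifngr2 at 278 to 359 CPM, Ifnar2 at 183 to 251 CPM and Ifnar1 at 66.3 to 162 CPM. Downstream of them, Stat2, a transcription factor of the type I interferon response, was at 27.2, 10.95, 16.3 and 114 CPM in the controls in order of time. It was at 76.7, 89.8, 114 and 131 CPM in A20 cKO. Its log2 ratio was -1.19 (-1.67 to -0.66) in control day 1 against naive and 1.99 (1.57 to 2.48) in control day 3 against naive. Irf7, an IRF that amplifies type I interferon production, was at 26.5, 15.9, 21.4 and 171 CPM in the controls and at 269, 352, 537 and 535 CPM in A20 cKO. In A20 cKO day 3 against naive the log2 ratio of Irf7 was 1.09 (1.00 to 1.19).

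Of 7 inhibitors of interferon signalling, 3 were at least 2-fold higher in control day 1 than in naive, Socs1, Socs3 and Ptpn1, against 5.09% of all genes tested. Socs3, a feedback inhibitor of JAK kinases, was at 43.2 CPM in control naive and at 599 CPM on day 1, a log2 ratio of 3.91 (3.58 to 4.28), and Socs1 was at 1.19 (0.41 to 2.22). Usp18, which blocks signalling from the type I receptor, was at 11.7, 13.1, 13.5 and 91.5 CPM in the controls and at 110.3, 119, 153 and 201 CPM in A20 cKO.

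Other interferon-induced GTPases were examined too. Of 16 with a single entry in the tables, 9 could be tested on control day 3 against naive, a comparison that crosses the barcode split. Of these 8 were at least 2-fold higher, against 7.48% of all genes tested, with a median log2 ratio of 2.56. Tgtp2, an effector IRG close to Iigp1 in kind, was at 0, 0.14 and 0.32 CPM in control naive, day 1 and day 2 and at 23.5 CPM on day 3. In A20 cKO it was at 38.01, 43.3, 66.3 and 75.5 CPM, so every A20 cKO library was above control day 3, which was not so for Iigp1. In A20 cKO day 3 against naive, 3 of 10 were higher, against 2.48% of all genes tested, with a median of 0.76. They were Tgtp2, Gm4951 and Mx1, which is also among the type I ISGs. All 3 were only just past 2-fold, and without centring, a setting applied to this list after the data were seen, 0 of 10 were. The share of all genes without centring is not given here. In control day 1 against naive the only 2 that could be tested, Gbp9 and Gm4070, were lower, against 5.22% of all genes at least 2-fold lower.

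The 12 type I ISGs were set beside 18 genes of the interferon-gamma response. On control day 3 against naive, 7.48% of all genes tested were at least 2-fold higher. Among the type I genes 11 of 12 were, with a median log2 ratio of 2.96. On the gamma list 5 of 13 tested genes were (Cxcl10, Nlrc5, Tap1, Socs1 and Cd274), with a median of 0.32. The 2 lists have no gene in common. Cd74, the invariant chain of MHC class II, was at -0.28 (-0.53 to -0.03) and B2m, the light chain of MHC class I, at -0.33 (-0.37 to -0.30), below naive although the GTPases were above it. Between the linked day 3 libraries B2m was 1.69 (1.66 to 1.71) and Cd74 1.67 (1.51 to 1.83) higher in A20 cKO, where the GTPase sum differed by 0.03. The 17 partners of the GTPases tested serve autophagy-type conjugation (the Atg5 and Gabarap groups) and inflammasomes (Casp1, Casp4, Aim2, Nlrp3 and Gsdmd). In control day 3 against naive none of them was 2-fold higher, against 7.48% of all genes. In the same comparison 2 were lower (Gabarapl1 and Map1lc3a), against 3.02% of all genes. In A20 cKO day 3 against naive none of them was higher or lower, against 2.48% of all genes higher and 1.48% lower.

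Because Plac8 and the neutrophil markers were higher in the same libraries as the GTPases, sums were also taken without any cell that had a UMI of a monocyte, neutrophil or T and NK cell marker, an alternative chosen after the data were seen. This left out 0.93% to 3.85% of cells in control naive, day 1 and day 2 and 12.8% to 26.5% in the linked libraries. The summed log2 ratio was then 1.22 for control day 3 against naive, 0.68 for A20 cKO day 3 against naive and 0.10 for A20 cKO against control on day 3. In control day 3 against naive 5 members were at least 2-fold higher, and in A20 cKO day 3 against naive 3 were. The shares of all genes without these cells are not given here. The part of oligodendrocyte, astrocyte and endothelial RNA in these results was not tested.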

How the data were processed

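For each of 8 libraries the authors deposited a matrix of UMI counts, not normalized, made with 10x Genomics 3′ chemistry. The submitters' processing notes name Cell Ranger 2.1.1 and the build mm10. Members and gene lists were chosen with earlier results of these data known. Members were all named, other genes by list, plus the 10 genes most like the members.

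Cells with at least 1000 UMIs, 500 genes and at most 10% mitochondrial UMIs were kept. No doublet caller was run, and the study sorted singlets. Levels were UMI sums per 1000000 UMIs of the library (CPM). Log2 ratios had 0.5 UMIs added and were centred on the median of genes with at least 100 UMIs in the pair of libraries. Shares and classes used cells thinned to 2000 UMIs without replacement. Intervals at 95% were exact Poisson, Clopper-Pearson or conditional, for counting error only, and molecules were counted by UMI. With 1 library a group no test between groups was run. Likeness was Pearson's r of log-transformed thinned UMIs, among genes found in at least 5% of cells in at least 4 libraries. The scripts were tested on simulated data (Python 3.11.15, numpy, scipy). Of 27998 gene IDs, 99.0% matched GENCODE M21. Gbp6 (2 IDs), Gbp11, Gm12250, Mx2, Gm17757 and Trbc2 were not used. Some genes of the marker and signalling lists are not reported here.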

Additional observations from a re-analysis of the deposited data

Results flagged for a closer look

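Irgm1 and the summed GTPases differed from naive in opposite directions in the 2 genotypes on day 1 and on day 2. Each counting interval lay on 1 side of 0. The sum includes Irgm1, so it is not a result apart from that gene, and the sum without Irgm1 is not given here. In control naive, day 1 and day 2 the 4 Gbps summed to 72.8, 86.3 and 89.3 CPM. The 4 IRGs, Irgm1 among them, summed to 138, 82.3 and 78.6 CPM. The difference between genotypes was not tested, since each group had 1 library. On day 1 the log2 ratio of Irgm1 was -1.85 (-2.22 to -1.46) in control and 0.32 (0.13 to 0.50) in A20 cKO, and that of the 8 GTPases summed was -0.20 (-0.36 to -0.03) and 0.13 (0.04 to 0.22). On day 2 Irgm1 was at -1.43 (-1.78 to -1.06) and 0.68 (0.50 to 0.86) and the sum at -0.21 (-0.38 to -0.05) and 0.40 (0.31 to 0.49). Control naive, day 1 and day 2 and the 4 A20 cKO libraries each stay on one side of the barcode split, so each of these ratios lies within a set while the contrast of genotypes lies between the sets.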

How the results depend on the processing

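With 1 library a group no replicate could be left out. No paired analysis was possible because each group had 1 library. Of the alternative values of sums, counts, shares and class ratios, 155 stayed within the counting interval, or within 1.5 times for a count, and 31 moved. The sum for A20 cKO against control on day 3, whose interval includes 0, was the only one of these to change sign, without centring. All cells, the stricter cell filter, removal of shared barcodes and another thinning seed moved none. Without centring, the summed log2 ratio was 0.54 for A20 cKO day 3 against naive, 1.31 for A20 cKO against control on day 1 (0.99 from mean cell CPM, 1.00 without cells with markers of other blood cells) and -0.089 for day 3. Also without centring, 2 members were lower on control day 2 against naive and 1 in A20 cKO against control on day 3. Without marker-bearing cells 2 members were lower on control day 2 against naive, 1 was higher in A20 cKO day 2 against naive and 1 in A20 cKO against control on day 3. With a minimum of 20 UMIs, 1 member was lower on control day 1 against naive. The shares of all genes under these settings are not given here.

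Thinned to 1000 UMIs, the shares with a member were 17.6%, 16.1%, 14.7% and 36.7% in the controls in order of time. Those of A20 cKO were 26.4%, 31.6%, 36.3% and 36.9%. The log2 ratio between cells in and outside the ISG class moved with its threshold. With 2 of 12 genes it was 0.61, 0.89 and 1.23 in the controls after injury. For A20 cKO it was 1.14 when naive and 1.27 on day 1. With 5 of 12 it was 2.18, 2.13, 2.01 and 1.82 in the controls and 1.81, 1.94 and 1.48 in A20 cKO naive, day 1 and day 2. The cause of these moves was not tested.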

Other observations

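Gbp5 and Gbp7, which are neighbours in the chromosome 3 cluster, had the widest gap in percentage points of the 28 pairs of members in control day 3, a pair named after its values were seen. In that library 40 of the 79 thinned cells with Gbp5 also had Gbp7 (50.6%), against 22.8% of cells without Gbp5. Other pairs had more cells with both genes or a larger ratio of the shares, such as Gbp5 and Iigp1, with Iigp1 in 15.2% of cells with Gbp5 and 4.17% of cells without it. The same shares were 19.1% and 12.9% in A20 cKO naive, 22.9% and 14.7% on day 1, 32.1% and 12.9% on day 2 and 17.9% and 12.8% on day 3. In A20 cKO naive the widest gap was that of Gbp5 and Igtp, with Igtp in 28.7% of cells with Gbp5 and 10.9% of cells without it. Cells with a Gbp5 UMI numbered 28 to 94 in these A20 cKO libraries, and no test was run.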
